A study of Homo sapiens with 4 samples.

Results

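Cathepsins are the proteases described here, as 10 human genes (CTSB, CTSC, CTSD, CTSF, CTSH, CTSK, CTSL, CTSS, CTSV and CTSZ) of 20043 genes on a 1-colour Illumina bead array. The members were found by the gene symbol of each probe in the platform annotation, which gave 17 probes, 1 for each of 6 genes and several for CTSB, CTSC, CTSH and CTSL. The genes were picked with the signals of these same arrays in view, so their values are descriptions and carry no test. There were 4 arrays, 1 per group. The Dicer antibody array was labelled as MCF10A, a non-tumorigenic breast epithelial line, given MDA-MB-231 exosomes that carry an antibody against the microRNA-processing enzyme Dicer. The exosome array was labelled as MCF10A given MDA-MB-231 exosomes without that antibody. The MDA-MB-231 array was labelled as the breast cancer line from which the exosomes came, with no treatment, and the untreated array as MCF10A with no treatment. All cells were grown in medium whose serum had been depleted of exosomes. The extraction notes covered cells and exosomes alike, and the labels gave no dose, time, passage or clone.

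Cathepsins are made as inactive precursors, tagged with mannose 6-phosphate in the Golgi, carried to the lysosome and activated there by acid. Most are cysteine proteases, whereas CTSD is an aspartic protease. In breast tumours and the cells around them several are also secreted and cut collagen, elastin, laminin and cell adhesion proteins, and cystatins hold the cysteine cathepsins in check.

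Each probe had a deposited signal, in intensity units with background included, and a detection p-value, which ranks the probe against the negative controls of its array. A gene was called detected on an array where any of its probes had a detection p below 0.01, whereas comparisons and gene lists used 1 standing probe per gene, that with the highest mean normalized value. The arrays differed widely in this. The Dicer antibody and untreated arrays detected 56.4% and 56.9% of the genes, and the exosome and MDA-MB-231 arrays detected 7.91% and 8.08%. Any comparison across that split sets an array with few detected genes against one with many, and the group cannot be told apart from the split there. Markers of the labelled epithelium were detected in part. Of 8 basal epithelial markers with a probe, 3 were detected on the Dicer antibody array (the laminin chain LAMB3, SFN and EPCAM), 0 on the exosome and MDA-MB-231 arrays and 1 (LAMB3) on the untreated array, with summed signals of 3847, 429.7, 416.1 and 492.5 units in that order. LAMB3 alone held 3185.9 of the 3847 units on the Dicer antibody array. The basal keratins KRT5 and KRT14 and the adhesion protein E-cadherin (CDH1) were missed by all 4 arrays. Of 10 fibroblast markers, 5 were detected on the Dicer antibody array, 0 on the exosome and MDA-MB-231 arrays and all 10 on the untreated array, and their summed signals were 2596, 541, 540.9 and 60710 units in that order. Of 10 luminal epithelial markers, 7 were detected on the Dicer antibody array, 0 on the exosome and MDA-MB-231 arrays and 3 on the untreated array, with summed signals of 2655, 578.9, 561.2 and 1072 units in that order. By any probe, DCN of the fibroblast list was also detected on the Dicer antibody array and EPCAM on the untreated array. Groups are therefore named by array, as labelled. With 1 array per group no difference could be set against a spread between replicates.

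All 10 cathepsins were detected on the Dicer antibody array, 1 each on the exosome and MDA-MB-231 arrays, and 8 on the untreated array. CTSD was the member detected on all 4. CTSS and CTSV were the members missed on the untreated array, with detection p-values of 0.0766 and 0.0351 there. The single member seen on the exosome and MDA-MB-231 arrays lay close to the share of all genes detected on them. The plot of probe signals shows this split, with most open points near background and the filled points of CTSD above them.

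**Figure D1:**
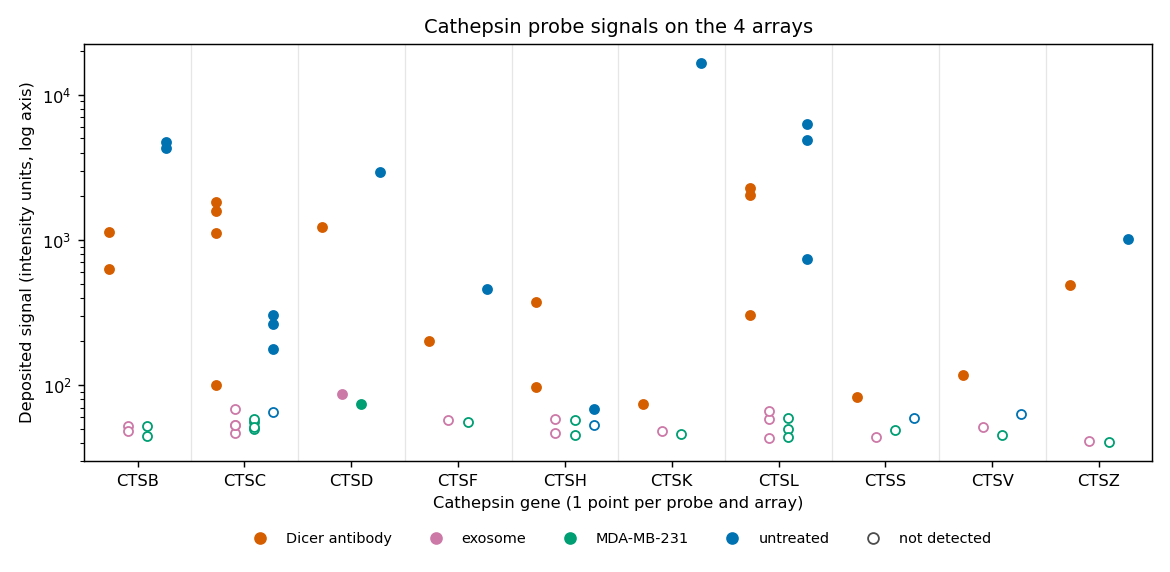
Deposited signal in intensity units (log axis) of each of the 17 cathepsin probes, by gene along the horizontal axis, with arrays from left to right within a gene as Dicer antibody, exosome, MDA-MB-231 and untreated. Filled points have a detection p below 0.01 and open points do not; CTSK on the untreated array, at 16558 units, is the highest point, and the exosome and MDA-MB-231 arrays have filled points for CTSD alone.

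The first comparison set the Dicer antibody array beside the untreated one. It is the comparison that by its labels concerns exosomes carrying an antibody to Dicer, and here both arrays detected many genes. Signals were background-corrected, quantile-normalized and logged with neqc from limma, and the difference of 2 normalized log2 values was counted when it reached 2-fold. A gene whose standing probe was detected on only 1 of the arrays gives a bound, which is written with "at least" and at its smallest over 6 scalings. Of the 10 cathepsins 4 were at least 2-fold lower on the Dicer antibody array (CTSK, CTSB, CTSF and CTSD) and 1 was at least 2-fold higher (CTSC). Over all 12252 genes compared, 16.7% were lower and 14.8% higher, 31.5% in either direction. Of the genes so counted 47% were higher on the Dicer antibody array, and 36.3% under median scaling. The median log2 difference was -0.91 over the 10 cathepsins and -0.01 over all genes. Under the strictest reading, a difference of 2-fold the same way in each of 6 scalings, CTSK and CTSB stayed lower and CTSC stayed higher, against 12.4% and 9.69% of all genes. Fewer cells of a type and less RNA per cell cannot be told apart in such bulk RNA.

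**Figure D2:**
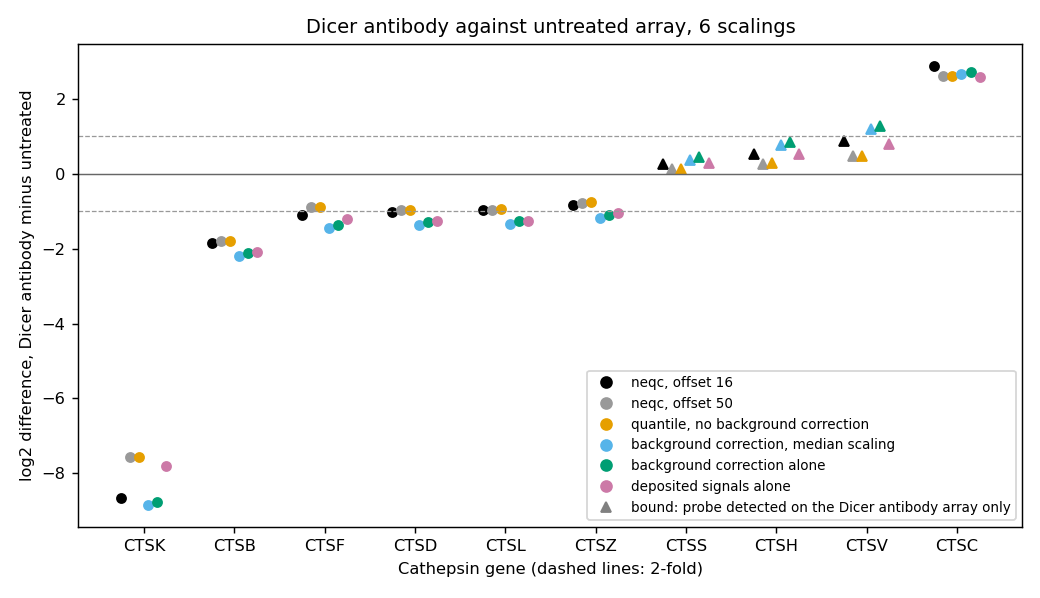
Log2 difference of each cathepsin, Dicer antibody minus untreated array, under 6 scalings of the arrays (colours); circles are genes whose standing probe was detected on both arrays, triangles are bounds for genes whose standing probe was detected on the Dicer antibody array alone, and dashed lines mark 2-fold. CTSK lies between -7.56 and -8.84 and CTSC between 2.59 and 2.88, while CTSD, CTSF, CTSL and CTSZ lie on either side of the lower dashed line, depending on the scaling.

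CTSK encodes the protease that cuts triple-helical collagen and is best known from bone-resorbing osteoclasts. Its single probe read 74.5 units on the Dicer antibody array, 48.5 on the exosome array and 46.2 on the MDA-MB-231 array, against 16558 on the untreated array. The untreated array alone was high, and the Dicer antibody signal, with a detection p of 0.00519, was just above background. CTSK was 406-fold lower on the Dicer antibody array, and between 189-fold and 457-fold lower over the 6 scalings. Of the 12252 genes compared, 1 had a more negative value. The genes whose 4 deposited signals lay nearest to those of CTSK, by Euclidean distance on the log2 scale among 12451 genes detected on at least 1 array, were the collagen chain gene COL1A2 (distance 0.435), the smooth muscle protein gene TAGLN (0.562), the chemokine gene CXCL12 (0.789), the tight junction gene CLDN11 (0.875) and TMEM119 (1.04). COL1A2 read 57.6 units on the Dicer antibody array, 54.6 on the exosome array and 48.6 on the MDA-MB-231 array, against 18125 on the untreated array. This likeness rests on 4 arrays and is a description. Outside the untreated array the signals of CTSK and COL1A2 were at or near background, so their distance rests mainly on the untreated level.

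Because osteoclasts are the textbook source of CTSK, their markers were read beside it. Of 8 osteoclast markers with a probe other than CTSK, 1 was detected on the Dicer antibody array and 2 on the untreated array (the proton pump subunit TCIRG1 and the transcription factor NFATC1), with summed signals of 748.6 and 1825 units. The calcitonin receptor CALCR, the RANK receptor TNFRSF11A, the gelatinase MMP9 and the fusion proteins OCSTAMP and DCSTAMP were not detected on either array. Most fibroblast markers moved with CTSK. Of the 10, 9 were at least 2-fold lower on the Dicer antibody array and 0 higher, against 16.7% and 14.8% of all genes. DCN, at 63.1 units on the Dicer antibody array and 69.2 on the untreated array, gave a bound of -0.05. The part of these markers in the result was not tested.

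CTSB, CTSL, CTSV and CTSS are cysteine proteases that cut inside proteins, and CTSB can also clip dipeptides from the C terminus. The main CTSB probe read 1127 units on the Dicer antibody array, 52.4 on the exosome array and 52.5 on the MDA-MB-231 array, against 4757 on the untreated array. A second CTSB probe read 628.7, 48.6, 44.9 and 4291 units in that order. CTSB was thus high on the untreated array, intermediate on the Dicer antibody array and at background on the others, by both probes. The log2 differences of the probes, Dicer antibody minus untreated, were -1.85 and -2.58, so that CTSB was 3.61-fold and 5.96-fold lower on the Dicer antibody array.

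CTSL, a broadly expressed lysosomal protease, had 3 probes, and they differed alike. They read 2042, 304.8 and 2290.1 units on the Dicer antibody array, and 4859, 738.6 and 6276 units on the untreated array. Their log2 differences were -0.98, -1.13 and -1.20, which puts the main CTSL probe just inside the 2-fold line and the others just beyond it. On the exosome and MDA-MB-231 arrays the 3 CTSL probes read 43.4 to 65.8 units, and none was detected.

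CTSV, a close paralogue of CTSL known from thymus, testis and cornea, ran the other way at a low level. It read 118 units on the Dicer antibody array, 51.3 on the exosome array and 45.2 on the MDA-MB-231 array, against 63.1 on the untreated array. CTSV was detected on the Dicer antibody array alone, where it was at least 1.38-fold higher than on the untreated array. Whether CTSL transcripts bind the CTSV probe was not tested.

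CTSS, which trims the invariant chain of class II antigen presentation in macrophages and other presenting cells, read 82.7 units on the Dicer antibody array, 44.2 on the exosome array and 48.8 on the MDA-MB-231 array, against 58.9 on the untreated array. It was at least 1.09-fold higher on the Dicer antibody array than on the untreated array. CTSS and CTSK lie next to each other on chromosome 1, with 0 protein-coding genes between them in the RefSeq annotation, and the untreated array on which CTSK was brightest did not detect CTSS. Of 10 leukocyte and macrophage markers 4 were detected on the Dicer antibody array and 5 on the untreated array. Their summed signals were 1555 and 3305 units in that order. CD14 read 624.6 units on the Dicer antibody array and 297.9 on the untreated array, and CD68 read 410.1 and 2488. CSF1R and AIF1 were also detected on both arrays. The pan-leukocyte gene PTPRC and the signalling adaptor TYROBP were not detected on either array, nor were CD163, ITGAM and FCER1G.

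CTSC removes dipeptides from the N terminus and is known for activating the granule proteases of immune cells. Its main probe read 1832 units on the Dicer antibody array, 68.1 on the exosome array and 56 on the MDA-MB-231 array, against 303.9 on the untreated array. Here the Dicer antibody array was the high one. Further probes for the same transcript read 1117 and 1587 units on the Dicer antibody array, and 178.6 and 262.9 units on the untreated array. The 3 probes gave log2 differences of 2.88, 2.89 and 2.86, and the main probe was 7.36-fold higher on the Dicer antibody array, with 208 of 12252 genes at a higher value. Epithelial markers moved with CTSC in part. Of 3 basal markers compared, 2 were at least 2-fold higher on the Dicer antibody array and 0 lower, against 14.8% and 16.7% of all genes. LAMB3 was 27.1-fold higher. Of 8 luminal markers compared, 4 were higher and 0 lower, and the keratin KRT7 held 1277 of the 2655 units summed on the Dicer antibody array, while KRT19 and MUC1 had log2 differences of -0.99 and -0.54. Their part in the result was not tested. The CTSC probe annotated to another transcript variant read 100.1 units on the Dicer antibody array and 64.9 on the untreated array, where it was not detected. The genes nearest to CTSC over the 4 arrays, by the same distance, were the transcription factor CEBPG (0.157), the carbonic anhydrase CA12 (0.237), the cytokinesis protein CEP55 (0.296), the hyaluronan receptor HMMR (0.310) and the small GTPase RHOB (0.330). CTSC was not detected on the exosome and MDA-MB-231 arrays, so this likeness rests mainly on the Dicer antibody and untreated arrays.

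CTSH, an aminopeptidase, depended on the probe. The probe with the higher mean normalized value read 97.2 units on the Dicer antibody array, 58.6 on the exosome array and 57.1 on the MDA-MB-231 array, against 53 on the untreated array. It gave a bound of at least 1.21-fold higher on the Dicer antibody array. The other CTSH probe read 371.6, 47.1, 45.2 and 68.3 units in that order. It was detected on both the Dicer antibody and untreated arrays, on the untreated array with a detection p of 0.00909, and was 6.72-fold higher on the Dicer antibody array. The first probe stood for the gene by the rule on mean normalized values, in which its undetected signals on the exosome and MDA-MB-231 arrays counted as 6.01 and 6.59 on the log2 scale, against 4.35 and 4.31 for the other probe. Both CTSH probes were brightest on the Dicer antibody array.

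CTSZ, a carboxypeptidase, read 492.7 units on the Dicer antibody array, 40.9 on the exosome array and 40.5 on the MDA-MB-231 array, against 1014 on the untreated array, a log2 difference of -0.84 between the Dicer antibody and untreated arrays. CTSF, a cysteine protease with a long propeptide, read 200 units on the Dicer antibody array, 57.1 on the exosome array and 55.5 on the MDA-MB-231 array, against 458.8 on the untreated array, a log2 difference of -1.11. CTSD, the aspartic protease long studied in breast cancer, read 1223, 86.2, 73.7 and 2921.5 units in the same order, a log2 difference of -1.02. In these deposited signals all of them were highest on the untreated array and second on the Dicer antibody array. After quantile normalization CTSZ and CTSF kept that ranking, but CTSD was lowest on the Dicer antibody array. Its normalized log2 values were 9.38 (Dicer antibody), 9.98 (exosome), 10.19 (MDA-MB-231) and 10.4 (untreated). Where another scaling was used, CTSF ranged from 1.86-fold to 2.74-fold lower on the Dicer antibody array, CTSD from 1.97-fold to 2.57-fold and CTSZ from 1.70-fold to 2.27-fold.

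Of the 7 members with a promoter entry, CTSD and CTSF hold the E-box CACGTG, the core of the element bound by the lysosomal regulators TFEB, TFE3 and MITF. Promoter sequence is shown for CTSD and CTSF and for CTSC, the member clearly higher on the Dicer antibody array. Each runs 5′ to 3′ on the minus strand of GRCh38.p14 and spans the RefSeq gene start, with most of its bases before it, and capitals mark the E-box CACGTG and the GC box GGGCGG, which reads CCGCCC on the opposite strand. The regions are chr11:88337687-88337986 for CTSC, chr11:1763878-1764177 for CTSD and chr11:66568557-66568856 for CTSF.
CTSC: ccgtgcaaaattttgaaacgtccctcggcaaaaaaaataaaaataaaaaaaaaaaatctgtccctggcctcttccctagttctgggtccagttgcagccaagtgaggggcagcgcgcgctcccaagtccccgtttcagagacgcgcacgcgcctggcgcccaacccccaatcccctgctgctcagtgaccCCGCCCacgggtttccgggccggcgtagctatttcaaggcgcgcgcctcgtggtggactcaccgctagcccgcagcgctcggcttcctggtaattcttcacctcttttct
CTSD: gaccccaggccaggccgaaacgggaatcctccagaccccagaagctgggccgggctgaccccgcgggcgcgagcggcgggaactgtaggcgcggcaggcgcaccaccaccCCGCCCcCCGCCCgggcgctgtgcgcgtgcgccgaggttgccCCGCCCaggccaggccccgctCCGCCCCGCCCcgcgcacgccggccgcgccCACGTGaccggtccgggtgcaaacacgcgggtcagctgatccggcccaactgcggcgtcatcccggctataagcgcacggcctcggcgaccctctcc
CTSF: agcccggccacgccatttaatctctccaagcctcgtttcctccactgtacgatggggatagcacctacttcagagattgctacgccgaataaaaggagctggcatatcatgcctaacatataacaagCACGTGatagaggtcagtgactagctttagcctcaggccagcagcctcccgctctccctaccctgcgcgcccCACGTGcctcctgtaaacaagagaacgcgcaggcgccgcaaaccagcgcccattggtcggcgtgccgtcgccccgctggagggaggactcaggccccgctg

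Both strands of the 7 cathepsin promoters in the RefSeq table were searched for 4 motifs. CTSB, CTSK and CTSS had no promoter entry there and were not searched. CACGTG was found in 2 of 7, once in CTSD at bases -47 to -42 and at 2 places in CTSF, at -123 to -118 and -51 to -46, against 7.26% of all 35116 promoters, with the gene start counted as base 1 and the base before it as -1. The GC box was found in 6 of 7, against 45% of all promoters, and CTSF was the member searched that lacked it. In CTSD 2 of its GC boxes share a base, at -77 to -72 and -72 to -67. The TATA box TATAAA and the AP-1 motif TGANTCA were found in 0 of 7, against 11.5% and 7.71% of all promoters. A match describes the letters in this window. Of the factors themselves, TFEB was not detected on the Dicer antibody or untreated array, at 59.2 and 66.0 units, and TFE3 read 261.8 and 265.3 units in that order. MITF read 234.2 units on the Dicer antibody array and 100.3 on the untreated array, 2.62-fold higher on the Dicer antibody array and 1.92-fold at the smallest over the scalings.

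The rest of the lysosomal system was read from lists of genes grouped by function. Among the other cathepsins, CTSA, a serine carboxypeptidase that protects lysosomal neuraminidase, read 1004 units on the Dicer antibody array and 4470.3 on the untreated array, 3.82-fold lower. CTSO had a log2 difference of -0.87. CTSW, a lymphocyte cathepsin, had a bound of -0.04, which was 0 with background correction alone and in the deposited signals, so it gave no direction. CTSE and the neutrophil protease CTSG were missed by all 4 arrays. All 30 other lysosomal hydrolases and activators with a probe were compared. Of these 13 were at least 2-fold lower on the Dicer antibody array and 1 was higher, against 16.7% and 14.8% of all genes. Their median log2 difference was -0.84. Across the scalings 10 to 17 hydrolases and activators were lower and 0 or 1 higher. The phospholipase PLA2G15 was 7.59-fold lower, the peptidase TPP1 4.66-fold lower and the heparan sulphate enzyme IDUA at least 4.39-fold lower, while the palmitoyl thioesterase PPT1 was 2.31-fold higher (1.84-fold at the smallest over the scalings) and prosaposin (PSAP) had a log2 difference of 0. Of 22 lysosomal membrane and proton pump genes compared, 7 were lower and 0 higher (median -0.60), against the same 16.7% and 14.8%. CD68 was 5.27-fold, the calcium channel MCOLN1 4.55-fold and the pump subunit ATP6V0E1 4.54-fold lower. Across the scalings 7 to 10 membrane and pump genes were lower and 0 higher.

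Of 16 genes that sort and tag lysosomal enzymes, 5 were lower and 0 higher (median -0.75), against 16.7% and 14.8% of all genes. Across the 6 scalings 4 to 9 were lower and 0 or 1 higher. The subunits of the phosphotransferase that makes the mannose 6-phosphate tag were among the 5 lower genes. GNPTAB read 294 units on the Dicer antibody array and 2261.5 on the untreated array, 6.82-fold lower, and GNPTG was 3.41-fold lower. The small mannose 6-phosphate receptor M6PR had a log2 difference of 0.52 and legumain (LGMN), which matures several cathepsins, one of -0.75. These medians set beside -0.01 for all genes are descriptions, and under median scaling, which put the median of all genes at -0.18, the medians were -1.26 for the cathepsins, -1.19 for the hydrolases, -1.09 for sorting genes and -0.95 for the membrane genes.

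Of 20 cathepsin inhibitors with a probe 7 were compared, of which 3 were detected on both arrays and the rest gave bounds. On the Dicer antibody array 2 were at least 2-fold lower and 0 were counted as higher. CST7, detected on both arrays, had a log2 difference of 0.53. A bound is a lower limit and does not place a gene within 2-fold. The list median of 0.07 was itself a bound, that of SERPINB4. Over all genes compared 16.7% were lower and 14.8% higher. Under median scaling and with background correction alone 1 inhibitor was higher. Cystatin C (CST3), the main secreted cystatin, read 3023 units on the Dicer antibody array and 8051 on the untreated array, 2.32-fold lower. Cystatin B (CSTB), the intracellular one, read 3222 and 8850.1 units in that order, 2.42-fold lower. The serpin SERPINB3, which blocks cathepsins of the CTSL kind, was detected on the Dicer antibody array alone and was at least 1.33-fold higher.

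**Figure D3:**
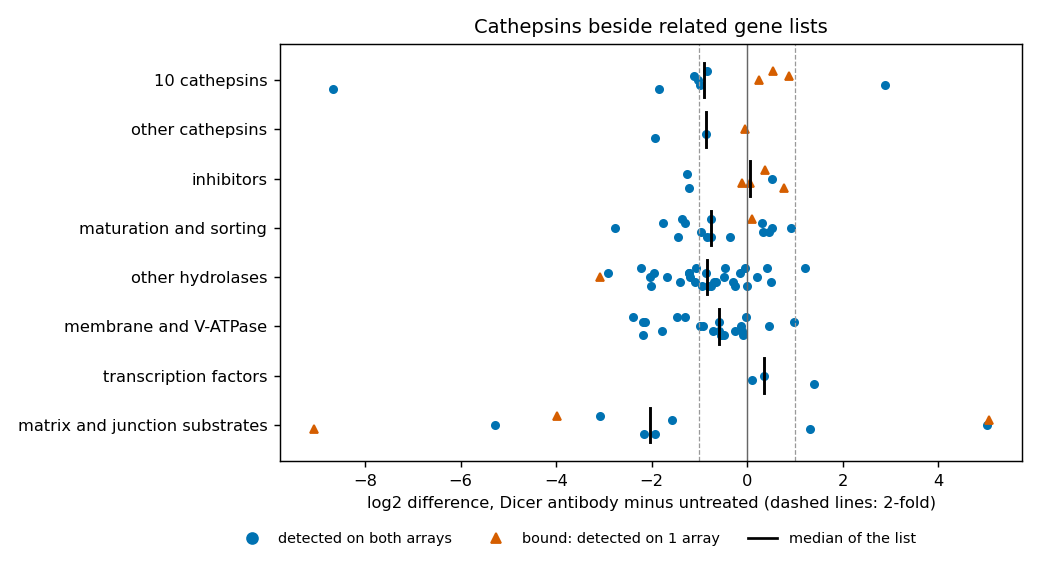
Log2 difference, Dicer antibody minus untreated array, of the genes in 8 lists (rows); circles are genes whose standing probe was detected on both arrays, triangles are bounds where it was detected on 1, black bars are list medians and dashed lines mark 2-fold. The 10 cathepsins have their median at -0.91, with CTSK far to the left at -8.67 and CTSC to the right at 2.88, and the hydrolase, sorting and membrane lists have medians of -0.84, -0.75 and -0.60.

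Of 14 genes for proteins that cathepsins cut, 10 were compared. All 10 differed by at least 2-fold, 7 lower and 3 higher on the Dicer antibody array, against 31.5% of all genes. With an offset of 50 or without background correction 6 were lower and 2 higher. The lower ones included collagens and elastin, with COL1A2 at least 246-fold, COL3A1 38.7-fold, the type I chain COL1A1 4.46-fold and ELN at least 7.74-fold. The basement membrane protein NID1 was 2.97-fold lower, or 1.92-fold at the smallest over the scalings. The 3 higher ones were the laminin chain LAMA5 32.5-fold, the desmosomal cadherin DSG2 at least 15.7-fold and plakoglobin (JUP) 2.495-fold. At the smallest over the scalings LAMA5 was 17.2-fold and JUP 1.75-fold higher. With CTSK the collagens stood on the untreated side, and LAMA5 and DSG2 stood with CTSC on the side of the Dicer antibody array. These substrates overlap the fibroblast list in COL1A1, COL1A2 and COL3A1.

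Comparisons with the exosome and MDA-MB-231 arrays cross the split in detection, or lie within its low side, and there a member was counted only where it reached 2-fold the same way in each of the 6 scalings. For a gene that a low array missed, the bound reaches 2-fold only where the array with many detected genes gave a high value. The exosome array against the untreated array, which by its labels asks what exosomes do to MCF10A, had 7 members compared. Of these CTSK, CTSL and CTSB were lower on the exosome array, by at least 14.2-fold, 2.71-fold and 2.655-fold, and 0 were higher. Of all 11327 genes, 5.2% were lower and 1.25% higher, 6.45% in either direction. The MDA-MB-231 array against the untreated array gave CTSK, CTSL and CTSB lower by at least 14.4-fold, 2.75-fold and 2.69-fold and 0 higher, against 5.36% and 0.326% of 11358 genes, 5.69% in either direction. Both comparisons share the untreated array, so they are not independent.

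The Dicer antibody array against the exosome array, which by its labels isolates the antibody, had 10 members compared and 0 counted in either direction, against 4.67% of 11223 genes higher, 1.22% lower and 5.89% either way. The MDA-MB-231 array against the Dicer antibody array also had 10 compared and 0 counted, against 0.24% of 11259 genes higher, 4.88% lower and 5.12% either way. CTSC read 1832 units on the Dicer antibody array against 68.1 on the exosome array, and the bound was at least 1.26-fold higher, because quantile normalization put the lowest detected value of the exosome array at 9.66 on the log2 scale, against 4.82 on the Dicer antibody array. With the deposited signals alone, the log2 bound for CTSC was 4.50. The MDA-MB-231 array had its lowest detected value at 9.64. CTSL, the highest member on the Dicer antibody array by standing probe, stood at 10.16. No member missed by a low array could thus reach 2-fold under quantile normalization, and the 0 counted was fixed for those members. In the deposited signals CTSB, CTSC, CTSD, CTSF, CTSL and CTSZ passed 2-fold in both comparisons, and the other members did not.

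CTSD was the only member that could be measured on the exosome and MDA-MB-231 arrays. Against the untreated array it was lower under all 6 scalings, with log2 differences of -0.41 to -5.94 on the exosome array and -0.20 to -6.30 on the MDA-MB-231 array. In the other comparisons its direction turned with the scaling. On the Dicer antibody array against the exosome array the log2 difference was -0.60 after quantile normalization and 3.83 in the deposited signals. On the MDA-MB-231 array against the Dicer antibody array it was 0.82 and -4.05. In the authors' deposited table CTSD stood at 493.7 on the Dicer antibody array and 847.6 on the MDA-MB-231 array, against 969.5 on the untreated array, whereas the deposited MDA-MB-231 signal before normalization was 73.7 units. Between the exosome and MDA-MB-231 arrays, at 86.2 and 73.7 units, the log2 difference was -0.21 after quantile normalization and 0.23 without it. No member reached 2-fold there, against 3.34% of 1948 genes higher, 0.975% lower and 4.31% either way.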

How the data were processed

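Transcript levels came from 4 RNA samples, each on 1 Illumina bead array read in 1 colour, and the labels gave the groups. Per the labels' protocols, total RNA was reverse transcribed and transcribed in vitro into biotin-labelled copies. The authors deposited 1 intensity per probe and array for 47322 probes, linear and without background subtraction, and a detection p-value beside it. The authors also deposited a value table of intensity values normalized between arrays by a method not given in the sources used here, and its exosome column holds the detection p-value, within 0.0026 of that in the other table, so that column was not used as a signal. The submitters' processing notes name limma.

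Gene symbols came from the platform annotation and were updated by gene identifier for 30071 of the 30110 probes with a single symbol; 8 probes had several and 17204 none. The signals were processed with neqc of limma 3.58.1 in R 4.3.3, with the background taken from the detection p-values, an offset of 16 and quantile normalization over the 4 arrays. Where a gene had several probes, the one whose normalized values had the highest mean stood for it. A gene whose standing probe was detected (p below 0.01) on 1 of 2 arrays gave a bound, taken against its own value on the other array or the lowest value detected there, whichever was higher. The 6 scalings were neqc with offsets of 16 and 50, quantile normalization without background correction, background correction with median scaling, background correction alone, and the deposited signals alone. The steps were checked on simulated arrays, all built from the untreated array. That check does not cover arrays with few detected genes, so it says nothing about the comparisons across the split. Python 3.11.15, numpy 2.4.6, pandas 2.3.3, scipy 1.17.1 and matplotlib 3.10.9 were used. Promoters came from RefSeq (GRCh38.p14).

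All 10 members are named with all their probes, as are the 5 other cathepsins, and from each related list up to 3 genes at either end of the Dicer antibody against untreated comparison, with a few further genes (TFEB, PSAP, LGMN, COL1A1 and NID1) chosen after their values were seen. Cell type markers are named by whether they were detected, from lists given with the design, and which of them are named was chosen after their values were seen. The members and lists were chosen with earlier results of these data known. With 1 array per group no p-value, error or interval for a difference could be given, and precision is limited by there being 4 arrays.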

Additional observations from a re-analysis of the deposited data

How the results depend on the processing

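Of 100 values of the 10 cathepsins under 10 alternatives, Dicer antibody against untreated, 93 lay within 1.5 times of the value given and 0 changed sign. The others were CTSK under 4 alternatives, CTSH under 2 and CTSV under 1. Part of this tally was fixed in advance. A changed detection filter cannot move a gene detected on both arrays, and a changed probe rule cannot move a gene with 1 probe. A bound stops at 0, so CTSH, CTSS and CTSV could not change sign where they stayed bounds. The count of lower cathepsins, 4 as given, was 2 (CTSB and CTSK) without background correction, with an offset of 50 and in the authors' value table. It was 6, with CTSL and CTSZ, under median scaling, with no normalization between arrays and in the deposited signals alone, and 5, with CTSL, as a mean over probes and with the probe of highest mean deposited signal. The count of higher cathepsins, 1 as given, was 2 with CTSV under median scaling, with no normalization between arrays, at a detection p below 0.05 and with no detection filter. It was 2 with CTSH as a mean over probes and with the probe of highest mean deposited signal, an alternative chosen after seeing the data. Over all genes 3865 differed by 2-fold, against 2202 by the authors' values and 2889 to 4614 under the other alternatives. Of the genes counted, the part that was higher on the Dicer antibody array was 47%, and 36.3% under median scaling, 40.3% with background correction alone and 39.3% in the deposited signals. At a detection p below 0.05, CTSC and CTSL were counted in the Dicer antibody against exosome comparison and in the MDA-MB-231 against Dicer antibody comparison, 2 in each in place of 0; the looser threshold lowers the lowest detected value. As a mean over probes, CTSL was no longer counted in the exosome against untreated and MDA-MB-231 against untreated comparisons. Each then had CTSB and CTSK, 2 in place of 3. No paired analysis was possible because each group had 1 array, and no array could be left out.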

Other observations

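On the arrays with few detected genes, 7 of 74 genes of the sorting, hydrolase, membrane and transcription factor lists were detected by their standing probe on the exosome array and 7 on the MDA-MB-231 array, against 70 on each of the other arrays. By the same rule 1569 of all 20043 genes were detected on the exosome array and 1586 on the MDA-MB-231 array. On the Dicer antibody and untreated arrays the numbers were 11084 and 11110. By another probe TCIRG1 was also detected on the MDA-MB-231 array. These genes are named after their values were seen. The lysosomal membrane protein LAMP2 read 1768 units on the Dicer antibody array, 1143.5 on the exosome array and 706.6 on the MDA-MB-231 array, against 4024 on the untreated array. On the exosome and MDA-MB-231 arrays the 1 detected cathepsin probe, that of CTSD, read 86.2 and 73.7 units. The proton pump subunit ATP6V1H read 905.5, 623.3, 165.5 and 1630.2 units in that order. The acid nuclease DNASE2 read 1283.5, 121.5, 75.1 and 1588 units. The pump subunits ATP6V0B and ATP6V1F and the cargo receptor LMAN1 were also detected on all 4 arrays. The pump subunit ATP6V0A1 was detected on the exosome array and not on the MDA-MB-231 array (95.2 units against 59.3), and ZKSCAN3, a repressor of lysosomal genes, on the MDA-MB-231 array alone of the pair (69.8 units on the exosome array, 71.3 on the MDA-MB-231 array).

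CTSW was the other cathepsin gene detected on the exosome array, at 83.7 units with a detection p of 0.00779, where the Dicer antibody array read 59.3, the MDA-MB-231 array 53.3 and the untreated array 69 units. Its detection p on the untreated array was also 0.00779.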
